A study of Mus musculus with 8 samples.

Results

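Mouse embryonic fibroblasts that carried R284S were set against those that carried N154S, both without added DNA, which are 2 of the 8 arrays of the study and 1 array on each side. All cells were STING-/- and received a construct: R284S, N154S, which the series' design text calls a SAVI mutant, human STING (hSTING), or the empty retroviral vector pBabe. Each construct had 1 control array and 1 array of cells transfected for 9 h, by Lipofectamine 2000, with double-stranded DNA (dsDNA), and the labels do not say whether control cells received the reagent alone. Each line was a single cell population, so the amino acid change and any other difference between the populations cannot be told apart. In bulk RNA, fewer responding cells and less RNA per cell cannot be told apart either.

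STING is the endoplasmic reticulum adaptor that binds cGAMP, the second messenger made by cGAS on cytosolic DNA. It recruits the kinase TBK1, which activates IRF3 for interferon beta and antiviral genes, and it also activates NF-kB. Secreted interferon then acts through promoter elements known as ISREs, and so induces a broad antiviral program together with the immunoproteasome and class I genes. SAVI is an inherited autoinflammatory disease of gain-of-function STING, and R284S is also known as a gain-of-function variant.

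Signals are the deposited log2 values of the arrays, and a difference is R284S minus N154S on that scale. A gene was counted as higher or lower at a 2-fold difference where the brighter array was at or above the median of its named genes, which was 4.46 in the R284S control and 4.47 in the N154S control. Where the dimmer signal lay below that median, the fold is given as a lower bound against the median. With 1 array on each side there is no test, no SE and no p for the control cells. Over the 22180 named genes the median difference was 0.00, and the lowest and highest 1% lay beyond -0.71 and 0.69. Among 304 genes with several probe sets that were bright on both arrays, the difference varied over the probe sets of a gene by a median of 0.18. The 13 measured fibroblast markers were at or above the median on both arrays, and their differences ran from -0.57 to 0.16. The leukocyte markers Ptprc, Adgre1 and Itgam read 2.63, 2.74 and 3.12 in R284S and 2.50, 2.92 and 3.19 in N154S, all below the median. Of the 14 measured leukocyte markers, 2 were at or above the median in R284S and 4 in N154S. Mpeg1 was among the latter at 5.44. The probe set of mouse Sting1 read 3.95 in R284S and 3.89 in N154S, and it does not check the labels, since no source used here gives the deleted part and no probe set read the human sequence by itself.

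Compared with N154S control cells, R284S control cells had lower signals for most interferon-stimulated genes, class I genes and several matrix genes, and higher signals for a small set that held the chemokines Ccl3, Ccl4, Cxcl2 and Cxcl11, the NF-kB inhibitor Tnfaip3, the itaconate enzyme Acod1 and the metalloreductase Steap4. In all, 36 genes were higher (0.162% of the genes) and 67 lower (0.302%), 103 together (0.464%). These shares belong beside the counts of list members below, and a low count in a short list says little by itself. The 36 higher genes read between 4.46 and 11.11 in R284S, and the R284S signal was the highest of the 4 control arrays for each of them. Of the 67 lower genes, N154S had the highest of the 4 control signals for 50 and R284S the lowest for 28. The choice of genes by the difference between the mutants fixes part of this order.

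**Figure D1:**
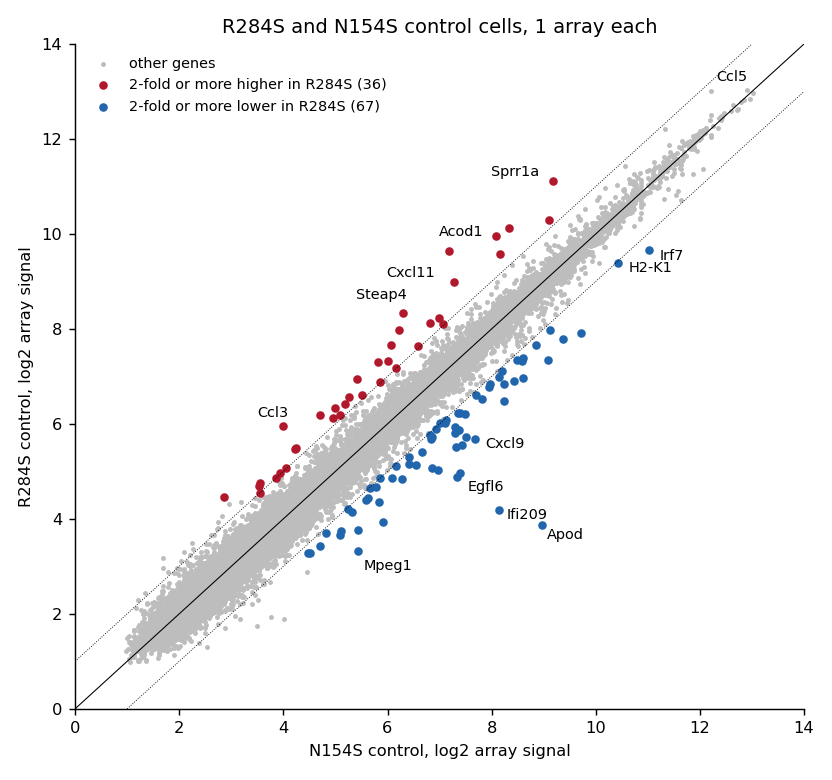
Log2 array signal of each named gene in R284S control cells (vertical axis) against N154S control cells (horizontal axis), 1 array each. Red points mark the 36 genes 2-fold or more higher in R284S and blue points the 67 lower, and the dotted lines mark a 2-fold difference. Apod, at 3.87 in R284S and 8.97 in N154S, lies farthest from the diagonal, and Ccl5 is among the brightest genes on both arrays.

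The promoters of 4 counted genes and of Cxcl10, which differed by 0.88 and was not counted, are shown first, because the letters of the elements that interferon and NF-kB are known to act through stand in them. The sequences are from RefSeq on assembly GRCm38.p6 and give the 250 bases before the start of the gene (the first start listed where there are several), read 5′ to 3′ on the strand of the gene, with the searched motif in capitals. Tnfaip3 encodes A20, which switches off NF-kB signalling, and its promoter (chr10:19015411-19015660, minus strand) holds a kB motif at positions -12 to -3 from the start. Neurl3, a ubiquitin ligase, has a kB motif at -110 to -101 (chr1:36273426-36273675, minus strand). Cxcl10, a chemokine for activated T cells, has an ISRE at -213 to -204 and kB motifs at -159 to -150 and -104 to -95 (chr5:92348890-92349139, minus strand). Phf11b and the immunity-related GTPase Igtp have an ISRE at -50 to -41 (chr14:59341331-59341580, minus strand) and at -34 to -25 (chr11:58199306-58199555, plus strand). Tnfaip3 and Neurl3 were higher in R284S control cells, and Phf11b and Igtp were lower.
Tnfaip3: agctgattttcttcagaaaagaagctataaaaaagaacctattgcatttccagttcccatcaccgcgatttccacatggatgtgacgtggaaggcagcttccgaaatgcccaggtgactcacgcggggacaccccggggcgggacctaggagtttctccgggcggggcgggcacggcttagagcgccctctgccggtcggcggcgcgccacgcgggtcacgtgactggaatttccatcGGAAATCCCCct
Neurl3: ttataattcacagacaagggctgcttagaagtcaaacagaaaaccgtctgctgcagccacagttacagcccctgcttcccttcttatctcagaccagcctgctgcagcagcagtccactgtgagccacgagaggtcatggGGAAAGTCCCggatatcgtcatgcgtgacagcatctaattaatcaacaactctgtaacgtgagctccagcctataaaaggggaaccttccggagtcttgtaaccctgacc
Cxcl10: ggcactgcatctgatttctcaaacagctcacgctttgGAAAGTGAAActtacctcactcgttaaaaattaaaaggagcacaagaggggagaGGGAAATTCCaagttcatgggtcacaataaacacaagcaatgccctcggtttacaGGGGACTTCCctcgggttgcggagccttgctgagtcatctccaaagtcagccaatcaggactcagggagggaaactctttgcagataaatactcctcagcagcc
Phf11b: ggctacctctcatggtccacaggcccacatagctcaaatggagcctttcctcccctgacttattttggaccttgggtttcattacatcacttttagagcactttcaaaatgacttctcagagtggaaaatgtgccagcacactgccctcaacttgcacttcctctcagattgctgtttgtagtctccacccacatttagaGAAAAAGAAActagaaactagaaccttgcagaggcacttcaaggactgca
Igtp: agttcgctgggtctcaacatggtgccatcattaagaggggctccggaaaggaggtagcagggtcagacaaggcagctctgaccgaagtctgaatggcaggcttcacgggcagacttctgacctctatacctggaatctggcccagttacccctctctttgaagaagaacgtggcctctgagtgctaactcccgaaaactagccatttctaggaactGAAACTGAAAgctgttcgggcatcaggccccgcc

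The ISRE was searched as TTTC and TTTC parted by any 2 bases and the kB motif as GGG and TTCC parted by any 3, which includes GGG and TTTCC parted by 2, on both strands of windows of 300 bases that run 250 bases before to 50 after each start. Of the 29 higher genes with a window, 2 held an ISRE and 5 held a kB motif, the latter in Cxcl2, Mme, Neurl3, Steap4 and Tnfaip3. Of the 47 lower genes with a window, 14 held an ISRE (29.8%) and 5 a kB motif (10.6%). Over all 16990 tested genes with a window these shares were 3.87% for the ISRE and 6.45% for the kB motif. The 5 lower genes with a kB motif were H2-Q4, Ifi209, Ly6c2, Oas3 and Tlr3. Neither motif stood in the windows of the higher genes Acod1, Ccl3 and Oasl1. The same held for the lower genes Apod, Egfl6, Irf7 and Tap1. In the gene lists, the ISRE stood in 36 of 70 interferon-stimulated genes, 1 of 47 NF-kB genes and 2 of 25 chemokine genes, and the kB motif in 10, 13 and 7 of them. The window of Cxcl9, a counted gene whose promoter is not printed, held neither set of letters. GAS elements (TTCNNNGAA) stood in 3 higher and 5 lower genes, and AP-1 elements (TGANTCA) in 7 and 8, with 9.15% and 8.42% over all genes. A match describes the letters of the window and is not a measured site of binding.

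Among the interferon-stimulated genes, R284S had the lower signal for 80 of 91 measured members, with a median difference of -0.61. Of these members 18 were counted as lower and 2 as higher. The Ifi200 family of DNA-binding proteins lay lowest, with 4 of 8 listed and measured members lower and a median of -1.23. Many of its signals were dim, with 2 of the 8 at or above the array median in R284S and 4 in N154S. Ifi209 read 4.19 in R284S, 8.14 in N154S, 4.13 in hSTING and 2.81 in vector control cells, and was at least 12.8-fold lower in R284S than in N154S. Its signal in R284S was thus within 0.1 of that in hSTING cells, and N154S stood alone among the control arrays. Ifi205 read 7.91 in R284S, 9.71 in N154S, 8.39 in hSTING and 4.17 in vector cells, 3.48-fold lower in R284S. Ifi204 differed by -1.26, and Ifi207 was at least 2.19-fold lower. Mndal, a counted relative outside the list, differed by -1.40. Probes of this family can cross-react between near-identical copies, so the assignment to single members is uncertain.

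The interferon-inducible GTPases of the GBP and IRG families act on vacuoles that hold pathogens. All 14 measured members of that list were lower in R284S, and 4 of them were counted. Of the 14, 8 were at or above the array median in R284S and 9 in N154S, so some of these signs rest on dim signals. Iigp1 read 7.35 in R284S, 9.09 in N154S, 6.98 in hSTING and 3.14 in vector control cells, a 3.34-fold difference between the mutants. Igtp read 7.67 in R284S, 8.85 in N154S, 7.34 in hSTING and 3.79 in vector cells. Gbp9 and Gbp10 differed by -1.17 and -1.36. For these 4 GTPases the R284S signal lay between that of N154S and that of vector cells or, for Gbp10 at 5.93 against 5.99, close to that of vector cells. The list may not hold every gene of these families, since genes with provisional symbols were left outside it. Of such genes Gm12250 was at least 2.73-fold lower, and Gm4951 and F830016B08Rik differed by -1.95 and -1.78. Among the PHF11, SP100 and nuclear body genes 3 of 9 were lower. Phf11b, whose promoter with its ISRE is printed above, read 4.97 in R284S, 7.39 in N154S, 5.12 in hSTING and 5.22 in vector cells, 5.35-fold lower in R284S. Its relative Phf11d differed by -1.89, and Sp100, the founding protein of the nuclear bodies of that name, by -1.52. All 4 probe sets of Sp100 were lower in R284S, by 0.12 to 1.85.

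The antiviral effectors did not move as one. Of 30 measured IFIT, OAS and related genes 5 were lower and 2 higher, with a median of -0.52. The 2′-5′ oligoadenylate synthetases, which activate the ribonuclease RNase L, were lower: Oas2 read 5.72 in R284S and 7.51 in N154S, Oas1g 6.49 and 8.24, and Oas3 4.84 and 6.28. Mx2, named for a dynamin-like GTPase against viruses but annotated in RefSeq as a transcribed pseudogene, read 5.88 in R284S and 7.37 in N154S. Ifit3b was at least 2.59-fold lower. Oasl1, an OAS-like protein without synthetase activity that is known to repress translation of Irf7, was higher: it read 10.29 in R284S, 9.10 in N154S, 6.16 in hSTING and 3.83 in vector control cells, 2.28-fold higher in R284S than in N154S. Several other antiviral genes differed in the same direction by less than 2-fold, with Rsad2, the radical SAM enzyme viperin, at 0.61, the nucleotide kinase Cmpk2 at 0.72, the RNA sensor Ifih1 at 0.73 and Ifit1 at 0.40. Ifi27, the other higher member, read 7.97 in R284S, 6.23 in N154S, 7.37 in hSTING and 7.84 in vector cells, so that N154S had the lowest of the 4 control signals.

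The ISG15 conjugation genes were lower without reaching 2-fold in any member, with Usp18, the protease that removes ISG15, at -0.93 and Isg15 itself at -0.16. Among TRIM, PARP and Schlafen genes 2 of 25 were lower, namely Trim30d at -1.04 and Slfn5, at least 1.97-fold lower.

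Of the 26 measured components of STING and interferon signalling, Irf7 was the 1 that was counted, and the median was 0.00. Irf7, the interferon-induced amplifier of interferon alpha genes, read 9.66 in R284S, 11.02 in N154S, 9.72 in hSTING and 5.27 in vector control cells, 2.57-fold lower in R284S than in N154S. Signals of Tbk1 and Irf3 were alike in the mutants, at 7.92 and 5.96 in R284S and 7.89 and 5.81 in N154S. Cgas read 4.64 in R284S and 5.56 in N154S. The endosomal RNA receptor Tlr3 read 7.11 in R284S and 8.19 in N154S and was the nucleic acid sensor of 13 that was counted. Ifnb1, which encodes interferon beta, read 4.06 in R284S and 2.82 in N154S control cells, both below the median, and 0 of 19 interferon ligands were counted. Nfkb1 was not analysed here.

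Of the class I antigen presentation genes 6 of 22 were lower in R284S and 0 higher, with a median of -0.36. H2-K1, a classical class I heavy chain, read 9.39 in R284S, 10.43 in N154S, 8.87 in hSTING and 7.26 in vector control cells. Tap1, which carries peptides into the endoplasmic reticulum, read 7.39 in R284S and 8.60 in N154S, and the immunoproteasome subunit Psmb9 5.30 and 6.41. The non-classical genes H2-Q4, H2-T23 and H2-M3 differed by -1.40, -1.29 and -1.04. With the mean of its probe sets H2-Q4 differed by -0.93 and would not be counted. The invariant light chain B2m read 12.96 in R284S and 13.02 in N154S, and the peptide-loading chaperones Calr, Canx and Pdia3 differed by 0.09, 0.00 and 0.02. H2 genes are near-identical copies of each other, so signals of single members can be shared.

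The NF-kB genes as a group had a median difference of 0.09 between the mutants in control cells. Of 61 measured members 1 was higher and 0 lower. Over all genes 0.162% were higher and 0.302% lower, so these counts say little by themselves. That member was Tnfaip3, which read 8.24 in R284S, 6.99 in N154S, 5.67 in hSTING and 5.54 in vector control cells, 2.38-fold higher in R284S than in N154S. Nfkbia, the inhibitor IkB alpha and itself an NF-kB target, read 9.77 in R284S, 9.19 in N154S, 9.02 in hSTING and 9.18 in vector cells. Relb and Nfkb2 of the non-canonical pathway differed by 0.34 and 0.30, and Birc3 by 0.09. Among the 36 inflammatory targets 0 were counted, and the differences ran from -0.90 for Il15 to 0.87 for the stress gene Ier3. Nos2, the inducible nitric oxide synthase, read 7.45 in R284S, 6.64 in N154S, 4.67 in hSTING and 4.48 in vector cells. Cd40, Sod2 and Icam1 differed by 0.69, 0.62 and 0.36, while Il6, Tnf and Vcam1 differed by -0.07, 0.02 and -0.29. Il6 read 8.29 in R284S and 8.36 in N154S. For the subunits and inhibitors of NF-kB, 17 of 25 signals were higher in R284S and 6 lower, and for the targets 21 and 15 of 36, where over all genes 10929 were higher and 10798 lower.

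**Figure D2:**
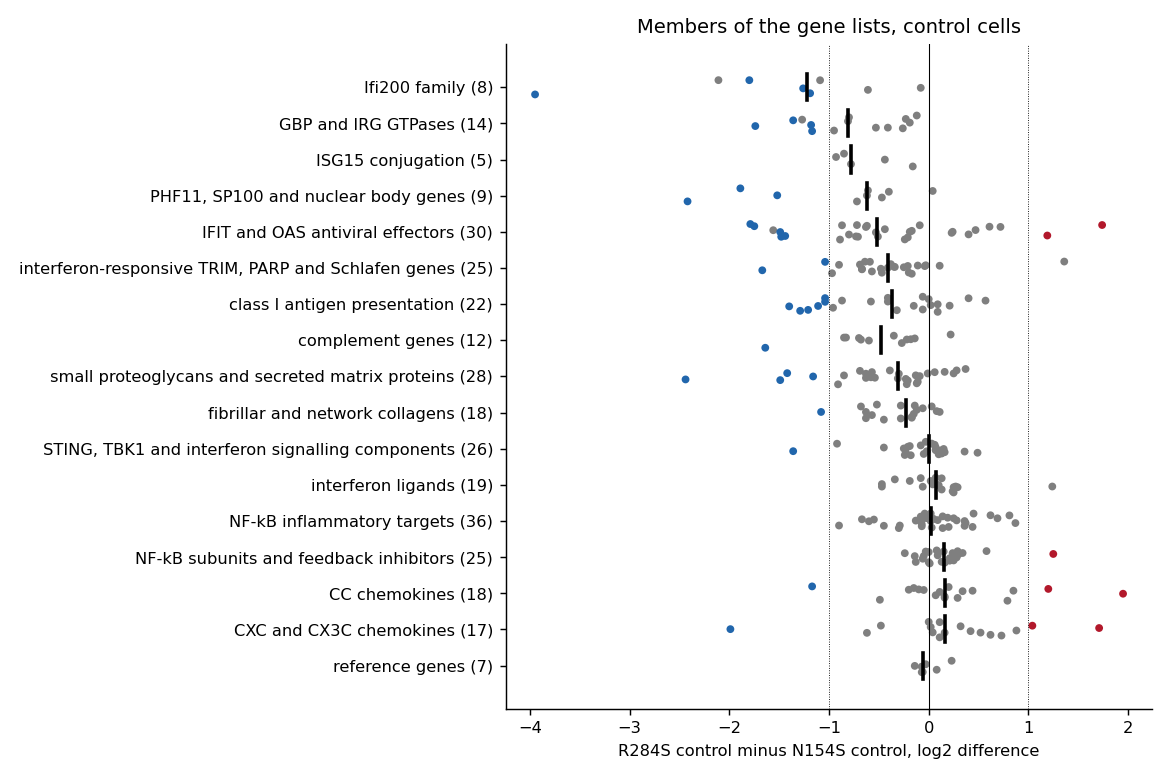
Log2 difference R284S control minus N154S control (horizontal axis) for each measured member of the gene lists (rows, with the number of members). Black bars are medians, blue points are members counted as lower, red points those counted as higher, and grey points those not counted. The Ifi200, GBP and IRG rows lie to the left of 0, with medians of -1.23 and -0.80, while the NF-kB rows centre on 0.02 and 0.15.

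The chemokines split. Of 35 measured members 4 were higher in R284S and 2 lower, with a median of 0.16. Ccl3, which attracts monocytes, read 5.95 in R284S, 4.0 in N154S, 3.87 in hSTING and 3.85 in vector control cells, so R284S alone was above the median, at least 2.79-fold higher. Ccl4, a related chemokine, read 4.75 in R284S and 3.55 in N154S, and the neutrophil chemokine Cxcl2 4.97 and 3.93. All 3 were dim in N154S, and the bounds for Ccl4 and Cxcl2 were 1.21-fold and 1.41-fold. Cxcl11, named for a ligand of CXCR3, read 8.99 in R284S, 7.28 in N154S, 4.14 in hSTING and 4.42 in vector cells. It was 3.27-fold higher in R284S than in N154S, and RefSeq annotates this mouse gene as a transcribed pseudogene. Cxcl10, another CXCR3 ligand, whose promoter is printed above, read 12.21 in R284S, 11.33 in N154S, 8.98 in hSTING and 5.13 in vector cells. Ccl5 read 13.01 in R284S and 12.22 in N154S, near the top of both arrays. The third CXCR3 ligand went the other way: Cxcl9 read 5.69 in R284S, 7.68 in N154S, 5.51 in hSTING and 3.15 in vector cells, 3.97-fold lower in R284S. The eosinophil chemokine Ccl11 read 6.77 in R284S, 7.94 in N154S, 7.49 in hSTING and 7.87 in vector cells, with R284S the lowest of the 4. Ccl2, Ccl7 and Ccl20 differed by 0.11, 0.07 and 0.16, and Ccl8 by -0.49.

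**Figure D3:**
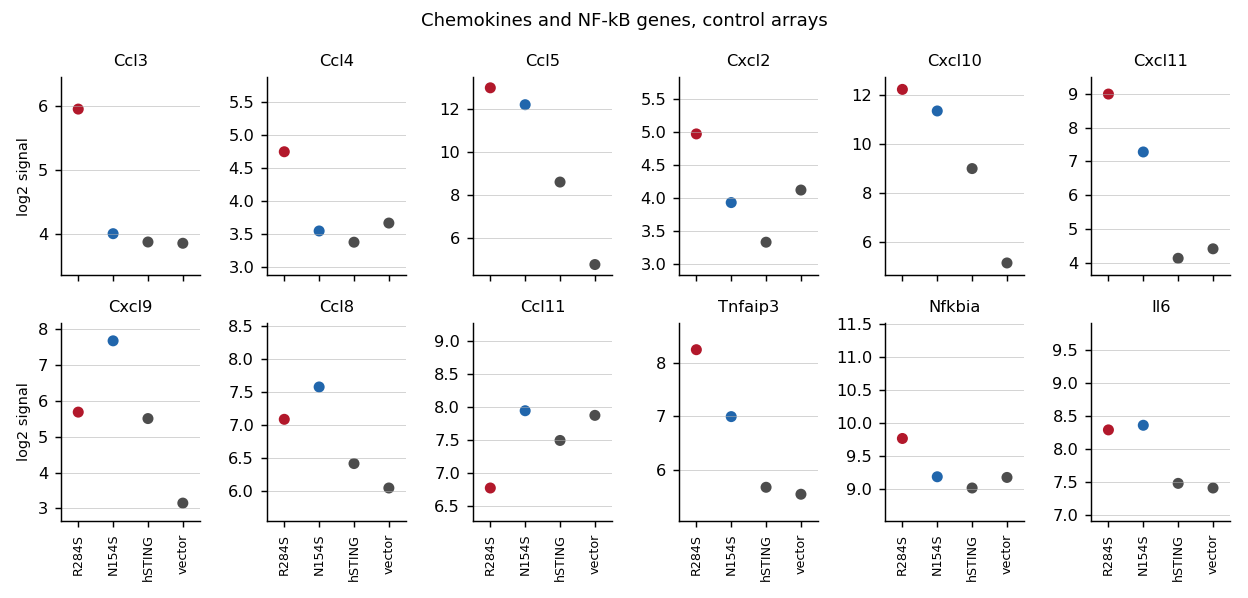
Log2 array signal (vertical axes, scaled by gene) of 9 chemokines and 3 NF-kB genes in the control arrays of R284S (red), N154S (blue), hSTING and vector cells (grey), 1 array each. Ccl3, Ccl4, Cxcl2, Cxcl11 and Tnfaip3 are highest in R284S, Cxcl9 is highest in N154S at 7.68, and Il6 reads 8.29 in R284S and 8.36 in N154S.

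Acod1 had the largest difference among the higher genes. It encodes the mitochondrial enzyme that makes itaconate, and it read 9.65 in R284S, 7.18 in N154S, 3.24 in hSTING and 3.63 in vector control cells, 5.54-fold higher in R284S than in N154S. Neurl3 read 10.13 in R284S, 8.34 in N154S, 5.56 in hSTING and 5.50 in vector cells, 3.46-fold higher in R284S. Both genes were thus ordered R284S, N154S and then the other lines in control cells. With dsDNA, hSTING cells read 10.76 for Acod1 and 10.59 for Neurl3, and vector cells read 3.91 and 5.52. High signals of these genes were therefore not particular to the mutants. The growth factor Bmp2 read 6.95 in R284S and 5.42 in N154S, the inhibitory receptor Lilrb4a 9.58 and 8.16, and the mitochondrial arginase Arg2, at least 2.03-fold higher, 5.49 and 4.25. Qdpr, which regenerates tetrahydrobiopterin, and the solute carrier Slc22a23 both differed by 1.48. The zinc finger gene Zfp455 read 4.46 in R284S and 2.86 in N154S, with no fold given because the R284S signal lay at the median.

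At the other end Apod, a secreted lipocalin, read 3.87 in R284S, 8.97 in N154S, 7.44 in hSTING and 4.62 in vector control cells, at least 22.8-fold lower in R284S than in N154S. R284S was here the lowest of the 4 control arrays and N154S the highest. Mpeg1, the pore-forming perforin-2 of macrophages, read 3.33 in R284S, 5.44 in N154S, 2.88 in hSTING and 2.56 in vector cells. It was the leukocyte marker of 14 that was counted, and the other 13 differed by -0.43 to 0.25. The part of other cell types in that difference was not tested. S1pr3, a receptor for sphingosine 1-phosphate, read 7.78 in R284S, 9.37 in N154S, 9.87 in hSTING and 10.14 in vector cells.

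Several secreted matrix genes were lower in R284S, with 4 of 28 proteoglycan and matrix genes counted (median -0.30) and 1 of 18 collagens (median -0.23). Egfl6, an EGF-like matrix protein, read 4.89 in R284S, 7.33 in N154S, 8.38 in hSTING and 9.11 in vector control cells, 5.43-fold lower in R284S than in N154S. Dpt and Fbln5, which organise collagen and elastic fibres, differed by -1.49 and -1.16, and Abi3bp was at least 1.54-fold lower. Col3a1 read 6.61 in R284S, 7.69 in N154S, 8.33 in hSTING and 9.05 in vector cells. For these genes both mutants lay below hSTING and vector cells, and R284S lay lowest. The fibroblast markers Col1a1, Lum and Thy1 differed by -0.57, -0.54 and -0.45, and Vim by -0.09. Of the 12 complement genes Serping1, the C1 inhibitor, was lower, at 6.97 in R284S, 8.61 in N154S, 8.51 in hSTING and 8.39 in vector cells.

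The pair of dsDNA arrays shares no array with the control pair and gives the same difference between the lines after 9 h of dsDNA. There 30 genes were higher in R284S (0.135%) and 133 lower (0.600%), 163 together (0.735%). The lower genes of the control pair mostly differed in that direction again: 65 of 67 had a lower signal in R284S, 47 were counted as lower and the median was -1.52, against -1.26 in control cells. Over all genes 46.6% had a lower signal in R284S with dsDNA. Ifi209 differed by -3.91, Apod by -4.86, Egfl6 by -3.05, Phf11b by -3.18, Cxcl9 by -2.64 and Irf7 by -1.21. For Apod and Egfl6 the R284S signals with dsDNA, 4.06 and 4.36, lay below the median of 4.46, so the size of these differences rests on a dim signal. The higher genes did so less: 26 of 36 had a higher signal in R284S, 7 were counted as higher and the median was 0.30, against 1.27 in control cells. Over all genes 51.9% had a higher signal in R284S with dsDNA. Steap4 differed by 2.23, Ifi27 by 1.82, Mme by 1.47, Sprr1a by 1.37, Rragd by 1.28, Capn6 by 1.22 and Slc22a23 by 1.11.

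Acod1 read 9.90 in R284S and 10.42 in N154S cells given dsDNA, Cxcl11 8.97 and 9.86, Ccl3 6.10 and 5.79, Tnfaip3 8.23 and 8.43, Neurl3 10.36 and 10.42, and Cxcl10 12.26 and 12.59. The R284S signals of these 6 genes were within 0.25 of the R284S control signals, and the N154S signals were higher with dsDNA than in control. For the 36 genes the median change with dsDNA was 0.03 in R284S and 0.84 in N154S cells. With dsDNA, R284S cells had 6 genes counted as higher and 9 as lower than their own control, and N154S cells had 84 and 24. These changes use the control arrays by which the genes were chosen, which fixes part of their direction. In the lists, the medians of the dsDNA pair were -1.12 for the interferon-stimulated genes, -0.12 for the NF-kB genes, -0.23 for the chemokines and -0.77 for the class I genes. The NF-kB and chemokine medians thus had the opposite sign to those of the control pair. Il6 read 8.34 in R284S and 9.71 in N154S cells given dsDNA, Tnf 3.61 and 5.08, and Ifnb1 3.04 and 4.95.

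**Figure D4:**
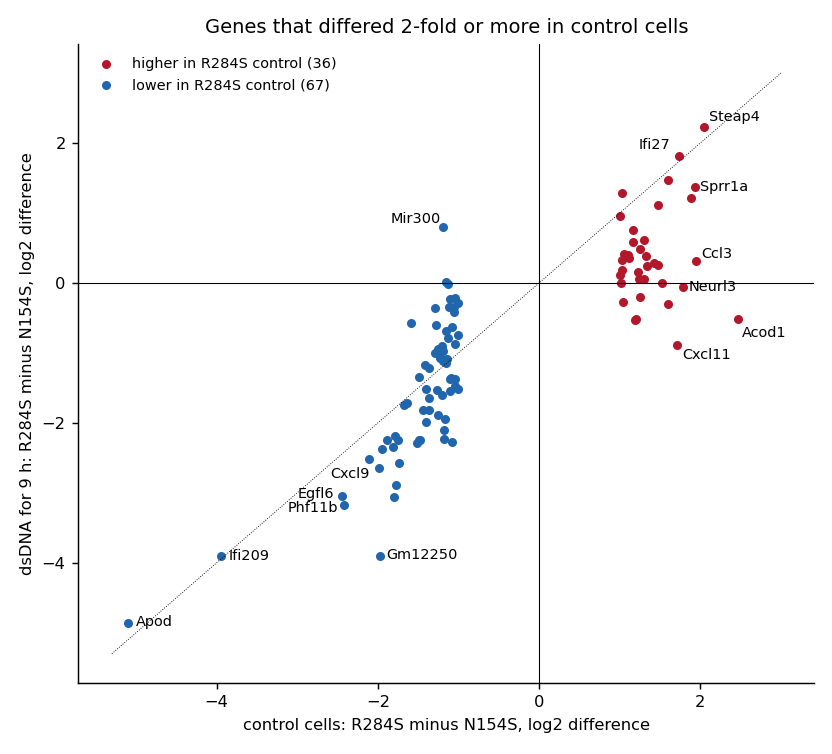
Log2 difference R284S minus N154S in control cells (horizontal axis) and in cells given dsDNA for 9 h (vertical axis) for the 36 higher (red) and 67 lower (blue) genes of the control pair, 1 array per line and treatment. The dotted line marks equal differences. Apod and Ifi209 lie near it at -4.86 and -3.91 with dsDNA, and Acod1 and Cxcl11 lie below 0 with dsDNA at -0.52 and -0.89.

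The 8 arrays together allow a fit of the average difference between the lines over both treatments, with limma and with construct and treatment as terms. Steap4 was higher in R284S, with a mean of 8.44 in R284S and 6.30 in N154S, a difference of 2.14 (SE 0.13, adjusted p = 0.0171 in limma with Benjamini-Hochberg adjustment). Egfl6 was lower, with means of 4.62 in R284S and 7.37 in N154S, a difference of -2.74 (SE 0.20, adjusted p = 0.0263). These were the 2 genes of 22180 that passed (0.00902%), and 1568 had an unadjusted p under 0.05. Apod, at -4.98 (SE 0.45), and Dpt and Fbln5, at -1.42 (SE 0.14) and -1.15 (SE 0.11), had an adjusted limma p of 0.0799. Without the vector pair of arrays 0 genes passed, with 1458 at an unadjusted p under 0.05, and without the hSTING pair 7 did. Unequal dsDNA effects of the lines enter the residual of this fit, so a gene that differs in control cells alone is set against a larger spread.

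A gene was taken as specific to a line where both its arrays lay 2-fold or more outside the range of the other 6. By this description R284S had 4 genes above (0.0180%) and 6 below (0.0271%), and N154S had 0 on either side. Above were Steap4, the cornified envelope gene Sprr1a, the calpain-like Capn6 and the membrane peptidase Mme. Steap4 read 8.34 and 8.54 in the R284S arrays and 5.81 to 6.58 in the other 6. Sprr1a read 11.11 and 11.13 in R284S, 9.18 and 9.76 in N154S, 6.87 and 9.54 in hSTING and 6.48 and 6.30 in vector cells, each as control and with dsDNA. Below were Egfl6, Serping1, Clca3a1, Abi3bp, Fbln5 and Dpt, of which Egfl6 read 4.89 and 4.36 in R284S and 7.33 to 9.16 in the other 6. At a 1.5-fold margin N154S had 1 gene above, the cornified envelope gene Ivl, and 1 below, Ifi27. Ivl read 6.83 and 6.39 in the N154S arrays and 4.12 to 5.70 in the others. For N154S the other 6 arrays took in hSTING cells given dsDNA. These read 9.12 for Apod and 9.20 for Ifi209, above both N154S arrays. The 0 for N154S therefore does not mean that no gene stood apart in N154S among the control arrays.

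**Figure D5:**
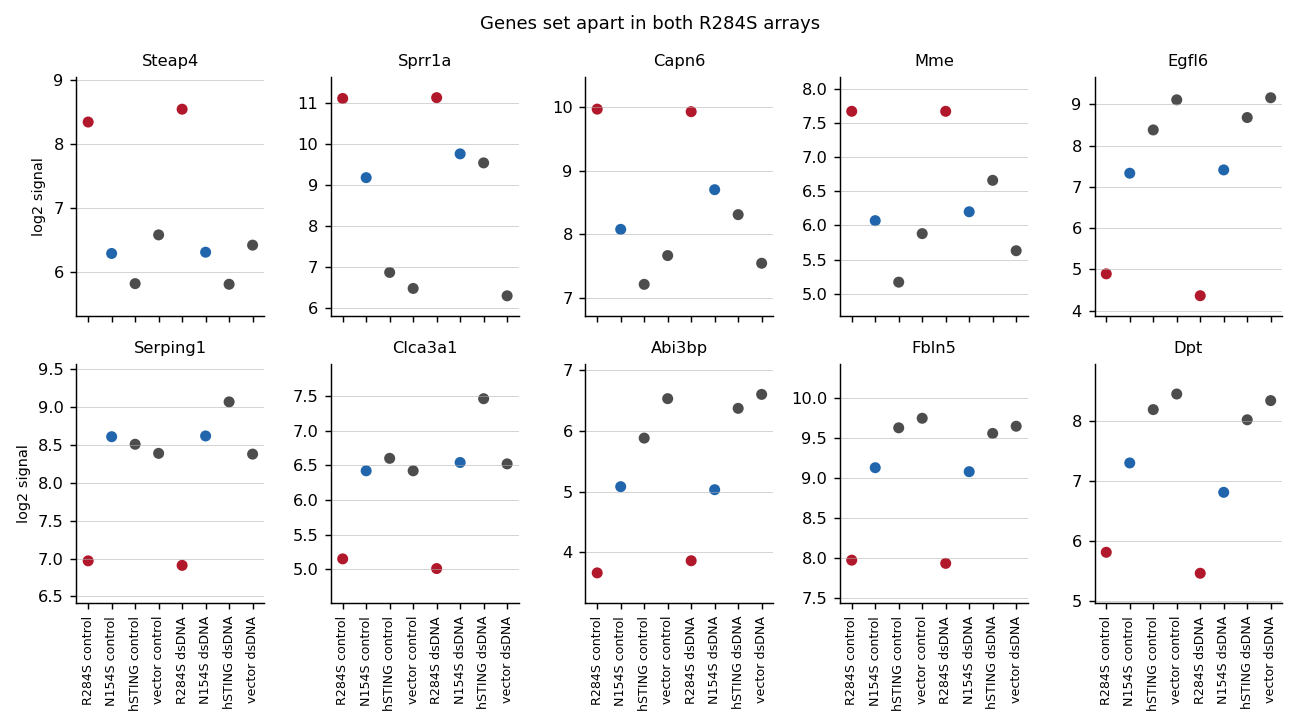
Log2 array signal (vertical axes, scaled by gene) of the 10 genes set apart in both R284S arrays, for each construct as control and with dsDNA, with R284S in red, N154S in blue and the other lines in grey. Each point is 1 array. Steap4 reads 8.34 and 8.54 in R284S and at most 6.58 elsewhere, and Egfl6 reads at most 4.89 in R284S and at least 7.33 elsewhere.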

How the data were processed

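Total RNA, 300 ng a sample, was labelled with GeneChip WT PLUS reagents, per the labels' protocols. The authors deposited log2 values with 2 decimals for 41345 probe sets an array, made with Affymetrix Expression Console 1.3.1.187, per the submitters' processing notes. No source used here gives the background correction or the summarisation. Array medians ran from 3.79 to 3.85, and sorted arrays differed by at most 0.25, so the values had been brought to 1 distribution. A log2 signal has no true zero, and a low signal is not taken as absence. The number of arrays limits the precision.

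The platform annotation named the probe sets: 23521 had 1 symbol and were used, 1814 had several and 16010 were not listed. For 1082 genes with several probe sets the brightest on average was taken, which gave 22180 genes. Differences of 2 arrays were computed in Python 3.11.15 without a test. The average over both treatments was fitted with limma 3.58.1 in R 4.3.3 (lmFit and eBayes, construct and treatment as terms, 3 residual and 4.03 prior degrees of freedom, Benjamini-Hochberg at 0.05 over all genes). Its p-values rest on how unequal the dsDNA effect was between lines, not on replicate cultures. On simulated data for this contrast over 22180 genes it recovered 50 of 100 genes at a log2 change of 1 and 95 of 100 at a change of 2, with 3 false calls. The simulation gave each line the same dsDNA effect plus independent noise. These rates therefore hold for that setting and not for lines with unequal dsDNA effects.

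The genes, the 40 gene lists and the tests were chosen with earlier results of these data known. Named genes were drawn from the 15 largest differences in each direction, list members that differed 2-fold and up to 10 genes a direction that passed in limma. Up to 10 line-specific genes a direction and a panel of pathway genes were also drawn on. Not all of these are named in the results. Among those left out were Ttc9 (1.34) and H2-Q5 (-1.81), and Cxcl1 (0.62) and Psmb8 (-0.96) of the panel. Other members of the lists named for their values, among them Ifih1, Cmpk2, Rsad2, Nos2, Ier3, Il15, Cd40 and Sod2, were chosen after these were seen. Mndal was also chosen after its value was seen. Promoters came from RefSeq (GRCm38.p6). No source used here gives the build of the array. Other fold limits, filters, scalings and arrays in the fit were tried.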

Additional observations from a re-analysis of the deposited data

Results flagged for a closer look

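For 10 genes counted in control cells the difference between R284S and N154S had the other sign in cells given dsDNA, where it was -0.52 for Acod1, -0.52 for Ccl4, -0.89 for Cxcl11, -0.27 for Cxcl2, -0.06 for Neurl3, -0.53 for Oasl1, -0.20 for Tnfaip3 and -0.30 for Zfp455, all higher in R284S control cells. It was 0.02 for Cdo1 and 0.80 for the microRNA gene Mir300, both lower in R284S control cells. The difference was not tested for any of them, and those of Neurl3 and Cdo1 with dsDNA lay near 0. Mir300 and Zfp455 were dim, at or near the median on their brighter control array.

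Probe sets outside the comparison also differed between the mutants in control cells. Of 1814 probe sets with several gene symbols 2 were 2-fold or more higher in R284S and 9 lower, with differences from -2.44 to 1.57. Of the 16010 probe sets with no listed symbol 62 were higher and 115 lower, with differences from -3.15 to 2.83. They are not assigned to genes here.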

How the results depend on the processing

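At a 1.5-fold limit 191 genes were higher and 244 lower in R284S control cells, and at 3-fold 10 and 18, as fewer genes pass a larger limit. Between 26 and 54 genes were higher and between 51 and 81 lower with other filters on dim genes, a second quantile normalization, the mean of probe sets or protein-coding genes alone, all within 1.5 times of 36 and 67. No counted gene changed direction. Gapdh, which was not counted, went from 0.08 to -0.01 with the second quantile normalization. The medians of 3 lists near 0 changed sign: the fibroblast markers to 0.09 with the mean of probe sets, against -0.09, and with bright members alone the leukocyte markers to -0.24, against 0.04, and the Hox genes to -0.01, against 0.02. With bright members alone the medians of the lists were 0.14 for the NF-kB inflammatory targets, 0.47 for the CXC and CX3C chemokines and 0.37 for all chemokines, as the dim members left. With the mean of probe sets Angpt1, Cped1 and Rgs2 differed by 0.64, 0.63 and 0.63, and H2-Q4 by -0.93. In limma 12 genes passed with a trend and robust variances, 3 with a filter on dim genes, 0 without the vector pair (1458 at an unadjusted p under 0.05, smallest adjusted limma p 0.0639), 7 without the hSTING pair and 0 with the R284S and N154S arrays alone (1718 and 0.0627), which has 1 residual degree of freedom. The cause of these differences was not tested. At a 1.5-fold margin R284S had 21 line-specific genes above and 19 below and N154S 1 and 1, and at 3-fold R284S had 1 and 1. The labels give no replicate numbers, so no replicate block was fitted, and treatment is the pairing term in each of these fits. Dim signals limit what can be read: below the median of the named genes a difference may go unseen.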

Other observations

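Several targets of the hypoxia-inducible factors, which adapt metabolism to low oxygen, were among the genes set apart in both R284S arrays at a 1.5-fold margin. Ndrg1 read 8.73 in R284S, 7.99 in N154S, 7.69 in hSTING and 7.93 in vector control cells, and 9.23 in R284S against 7.95 in N154S cells given dsDNA. The pyruvate dehydrogenase kinase Pdk1 read 6.82 in R284S and 6.0 in N154S control cells, the prolyl hydroxylase Egln3 8.47 and 7.69, the mitophagy receptor Bnip3 8.57 and 7.91, the lipase inhibitor Angptl4 9.78 and 9.04, and Mxi1, an antagonist of MYC, 7.67 and 6.95. A list of 26 such targets was then written after these values were seen, and 24 were measured. Of these, 22 had a higher signal in R284S than in N154S in control cells and 22 with dsDNA, with medians of 0.28 and 0.46, and 0 were counted as 2-fold higher in control cells. Both R284S arrays lay above all 6 others for 19 of the 24, as they did for 1486 of all 22180 genes (6.70%). Vegfa, Pfkfb4, P4ha2, Hk2 and Adm were the exceptions, and Adm read 9.21 in R284S and 9.51 in N154S control cells. The list was chosen on these arrays and gets no test. Ndrg1, Pdk1, Egln3, Bnip3, Angptl4 and Mxi1 lay above the other arrays by the way they were picked. That fixes part of the count of 19, so it cannot be read against the share of all genes.

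The targets of NRF2, the regulator of antioxidant genes, had a higher signal in R284S than in N154S for 13 of 16 members in control cells and 15 of 16 with dsDNA, with medians of 0.20 and 0.32 and 0 members counted. The lysosome and autophagy genes had a higher signal in R284S for 15 of 17 in control cells and 13 with dsDNA, with medians of 0.20 and 0.19 and 0 members counted. Cell cycle and mitosis genes had a lower signal in R284S for 26 of 32 in control cells and 23 with dsDNA, with medians of -0.18 and -0.15 and 0 members counted. The 36 measured Hox genes, whose pattern marks the body region that fibroblasts come from, had a median difference of 0.02 and ran from -0.48 to 0.64. The 7 measured reference genes differed by -0.14 to 0.23.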
